A study of Bos indicus x Bos taurus with 45 samples.

Results

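Liver and kidney of the same 4 healthy control fetuses were compared by small RNA sequencing, which counts microRNAs (miRNAs), the short RNAs that repress messenger RNAs by pairing with them. The fetuses were Bos indicus x Bos taurus crosses at about day 105 of gestation, conceived by artificial insemination. The comparison used the 8 libraries of control fetuses 1 to 4, 4 of liver and 4 of kidney, out of 45 libraries in the series. Libraries with the same fetus number were taken as tissues of a single fetus. The table for liver lists 563 miRNAs and that for kidney lists 436, and the 417 miRNAs found in both were compared, out of 603 in any of the 4 tissue tables. The 146 miRNAs listed for liver alone and the 19 listed for kidney alone are described separately. Liver and kidney of 4 fetuses with large offspring syndrome (LOS), conceived by assisted reproduction (ART), served as a second set of pairs. LOS is a fetal overgrowth condition of ruminants. Sex was not labelled for these libraries, and each library is whole frozen tissue, so a higher level can come from more cells of a type or from more of the miRNA per cell, which cannot be told apart.

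A miRNA is cut from a hairpin precursor whose 5p and 3p arms can each give a mature miRNA, and one of the arms usually gives most of the reads. Many miRNAs are enriched in a lineage: miR-122 in hepatocytes, miR-451 and miR-144 in red cell precursors, the miR-200 family in epithelium, and miR-199 and miR-214 in mesenchyme. Others follow position along the body axis, because miR-10 and miR-196 lie inside the HOX clusters, whose genes pattern the trunk. The fetal liver is also a main site of blood formation before the bone marrow takes over, whereas the fetal kidney at this stage holds forming nephrons, branching collecting ducts and stroma.

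Control liver libraries held 3379816 to 3961755 listed reads and control kidney libraries 6132982 to 8074879. Levels are given below as CPM (counts per 1000000 listed reads) after TMM scaling, a correction for a few very abundant miRNAs taking up reads, unless called unscaled. The TMM factors were 1.34 to 1.45 in liver and 0.691 to 0.770 in kidney. With unscaled totals the median difference over the 417 miRNAs was 1.09 log2 units, against 0.11 with TMM, so directions of small differences depend on this choice. Between libraries of the same tissue the correlation of log2 CPM across miRNAs was 0.992 to 0.996, and between liver and kidney libraries it was 0.791 to 0.824. The hepatocyte miRNA miR-122 was abundant in liver, which fitted the liver label. The HOX-cluster miRNAs miR-10a, miR-10b and miR-196b were abundant in kidney, but they follow body position and are not markers of kidney. Of the 4 shared miRNAs on the kidney and nephron list, 3 were higher in liver and only miR-204 was higher in kidney. The markers therefore did not settle the kidney label. Each tissue came as its own table with its own depth and list of miRNAs, and a difference between tissues cannot be told apart from a difference between tables.

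The makeup of the reads differed most through miR-10. In kidney, miR-10b took 28.4% ± 0.331 of all listed reads (SD, n = 4) and miR-10a took 11.9% ± 0.544. In liver the same miRNAs took 0.0773% ± 0.0516 and 0.318% ± 0.0165. Together they made up 0.332% to 0.484% of the reads of each liver library, against 40.0% to 40.8% of each kidney library. Liver reads were spread over more miRNAs: the 3 most abundant took 24.2% in liver and 47.6% in kidney, and the 10 most abundant took 54.5% and 71.9% of the liver and kidney reads.

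The liver was led by miR-411a, a member of the imprinted DLK1-DIO3 cluster, with 8.99% ± 0.256 of reads in liver and 3.16% ± 0.108 in kidney. Next were miR-148a with 8.06% in liver and 1.34% in kidney, miR-143 with 6.83% and 4.64%, miR-192 with 6.78% and 2.22%, and miR-92a with 5.76% and 1.80%, liver given first in each. After miR-10b and miR-10a the kidney was led by miR-30a-5p with 2.72% in liver and 7.30% in kidney, miR-26a with 3.78% and 4.81%, and miR-181a with 1.86% and 4.66%. These are shares of reads, so the 40% given to miR-10 in kidney lowers the share of every other kidney miRNA.

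Most shared miRNAs differed between the tissues. With edgeR's quasi-likelihood test, fetus as a block and Benjamini-Hochberg adjustment, 365 of 417 miRNAs (87.5%) were called at an adjusted p under 0.05, 189 of them higher in liver (45.3%) and 176 lower (42.2%). When the difference was tested against a minimum of 2-fold, 201 miRNAs (48.2%) were called, 98 higher in liver (23.5%) and 103 lower (24.7%). The 4 liver values lay above or below all 4 kidney values for 348 miRNAs (83.5%), 178 above and 170 below. The median size of the difference was 1.16 log2 units, and 16 miRNAs were at least 8-fold higher in liver and 16 at least 8-fold lower. Without any scaling factors the calls split into 272 higher and 98 lower in liver, 73.5% higher, against 51.8% with TMM. Because nearly all miRNAs pass the plain test, a group with shares near these does not stand apart from the shared miRNAs as a whole.

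**Figure D1:**
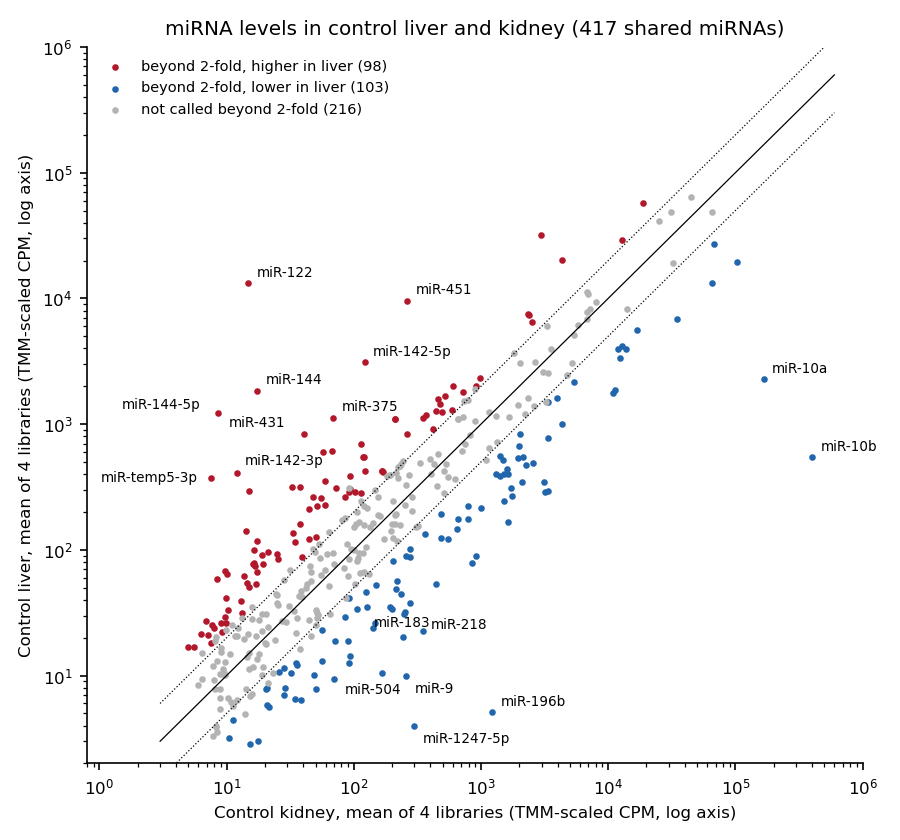
Mean level of each of the 417 shared miRNAs in control liver (vertical axis) and control kidney (horizontal axis), as TMM-scaled CPM on log axes. Each point is a miRNA and the mean of 4 libraries per tissue. Red points are the 98 called beyond 2-fold and higher in liver, blue points the 103 lower in liver, and grey points the other 216. The solid line marks equal levels and the dotted lines a 2-fold difference. The points farthest from the line are miR-122 on the liver side and miR-10b on the kidney side.

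The hepatocyte miRNAs were higher in liver, and miR-122 had the largest difference of all. This miRNA, the most abundant of adult hepatocytes and a regulator of lipid metabolism, had 12493, 13528, 13685 and 13161 CPM in the livers of fetuses 1 to 4, against 9.17, 33.0, 3.60 and 13.5 CPM in their kidneys. The groups were far apart, the livers were nearly level, and the kidney values spread over almost an order of magnitude. The log2 difference was 9.99 ± 0.46 (SE; adjusted p = 7.6e-08, edgeR), and it was 10.61 without fetus 2, whose kidney had the highest value. All 7 shared members of the hepatocyte list were called higher in liver, 3 of them beyond 2-fold, against 45.3% and 23.5% of all shared miRNAs. The median log2 difference of the 7 was 0.97, against 0.11 over all shared miRNAs. The other members past 2-fold were miR-148a, at 55300 to 59189 CPM in liver and 17949 to 19484 CPM in kidney (log2 1.62 ± 0.07), and miR-101, a miRNA known to target the histone methyltransferase EZH2, at 6742 to 8133 and 2157 to 2500 CPM in liver and kidney (log2 1.66 ± 0.06). In skeletal muscle of control fetuses miR-122 averaged 18.4 unscaled CPM, and it was not listed for tongue.

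The list also holds miR-192 and miR-194, which are made from shared primary transcripts and are known in liver, kidney and gut epithelium. Both were abundant in both organs. miR-192 had 43522 to 54934 CPM in liver and 27908 to 33592 CPM in kidney (log2 0.63 ± 0.07), and miR-194 had 1370 to 1795 and 727 to 857 CPM in liver and kidney (log2 0.97 ± 0.07). Neither passed the 2-fold test, although the groups did not overlap for either.

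Of the 4 shared miRNAs on the kidney and nephron list, 3 were higher in liver (miR-192, miR-194 and miR-215) and 1 was lower. Over all shared miRNAs 45.3% were higher and 42.2% lower. None of the 3 passed the 2-fold test, and miR-192 and miR-194 are also counted on the hepatocyte list. The member lower in liver was miR-204, known in kidney tubules and eye, with 425, 336, 456 and 386 CPM in liver and 1363, 1157, 1391 and 1300 CPM in kidney (log2 -1.71 ± 0.07, adjusted p = 3.5e-08, edgeR). miR-215, a relative of miR-192, had 151, 210, 186 and 698 CPM in liver and 68.2, 128, 89.7 and 82.8 CPM in kidney. Its difference of 1.47 ± 0.34 rested in part on the liver of fetus 4, without which it was 0.97. The list also includes miR-190a, listed for kidney alone at 9.08 unscaled CPM, while miR-211 and miR-190b were listed for neither tissue.

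The red cell miRNAs gave the largest differences of any group on the liver side. miR-144 and miR-451 are cut from a shared primary transcript that is switched on during red cell formation, and miR-451 is unusual in being trimmed by Argonaute 2 rather than Dicer. miR-451 had 9864, 9642, 10189 and 8790 CPM in the 4 livers and 402, 283, 190 and 171 CPM in the 4 kidneys. miR-144 had 1962, 1923, 1866 and 1650 CPM in liver, against 16.7, 20.6, 19.4 and 13.1 CPM in kidney. No liver value came near a kidney value for either. The log2 differences were 5.28 ± 0.20 for miR-451, 6.73 ± 0.11 for miR-144 and 7.17 ± 0.13 for the other arm, miR-144-5p.

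The fourth member, miR-486, is made in red cells and also in striated muscle. It was the most abundant of them, with 28896 to 34537 CPM in liver and 2721 to 3108 CPM in kidney (log2 3.45 ± 0.09). All 4 members were called higher in liver beyond 2-fold, against 23.5% of all shared miRNAs. The median of the 4 was 6.01, and their summed level was 40484 to 47822 CPM in the livers and 2939 to 3422 CPM in the kidneys. The muscle tissues separate miR-486 from the rest: in unscaled CPM it averaged 37797 in skeletal muscle and 19573 in tongue, whereas miR-451 averaged 120.2 and 232.9 and miR-144 averaged 9.61 and 18.5 there. How much of the liver difference comes from red cells held in the tissue rather than from blood formation was not tested.

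White blood cell miRNAs did not move as a block: of 8 shared members, 4 were higher in liver, 3 were lower and 1 was not called, with a median of 0.86, and among all shared miRNAs 45.3% were higher and 42.2% lower. The largest were the arms of miR-142, a miRNA of all blood lineages. miR-142-5p had 3072, 3137, 3388 and 2912 CPM in liver, against 107.0, 129.4, 131.7 and 119.2 CPM in kidney (log2 4.69 ± 0.08), and miR-142-3p had 387 to 440 and 10.8 to 13.8 CPM in liver and kidney (log2 5.07 ± 0.11). The lymphocyte miRNA miR-150 (2.09 ± 0.13) and the inflammation-related miR-146a (1.74 ± 0.10) were also beyond 2-fold higher in liver. In the other direction stood miR-146b (-2.55 ± 0.10), miR-155 (-0.88 ± 0.09), a miRNA of activated lymphocytes and macrophages, and miR-342-5p (-0.82 ± 0.17). miR-155 (0.097) and miR-342-5p (0.16) changed direction without scaling factors. The level of miR-342 was 785 to 848 CPM in liver and 778 to 855 CPM in kidney (log2 -0.01 ± 0.07, adjusted p = 0.87, edgeR), and the tissues overlapped. The myeloid miRNA miR-223 was listed for liver alone, at 104.8 to 115.0 unscaled CPM. Summed over the 8 members, the level was 4511 to 5213 CPM in liver and 1333 to 1452 CPM in kidney.

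**Figure D2:**
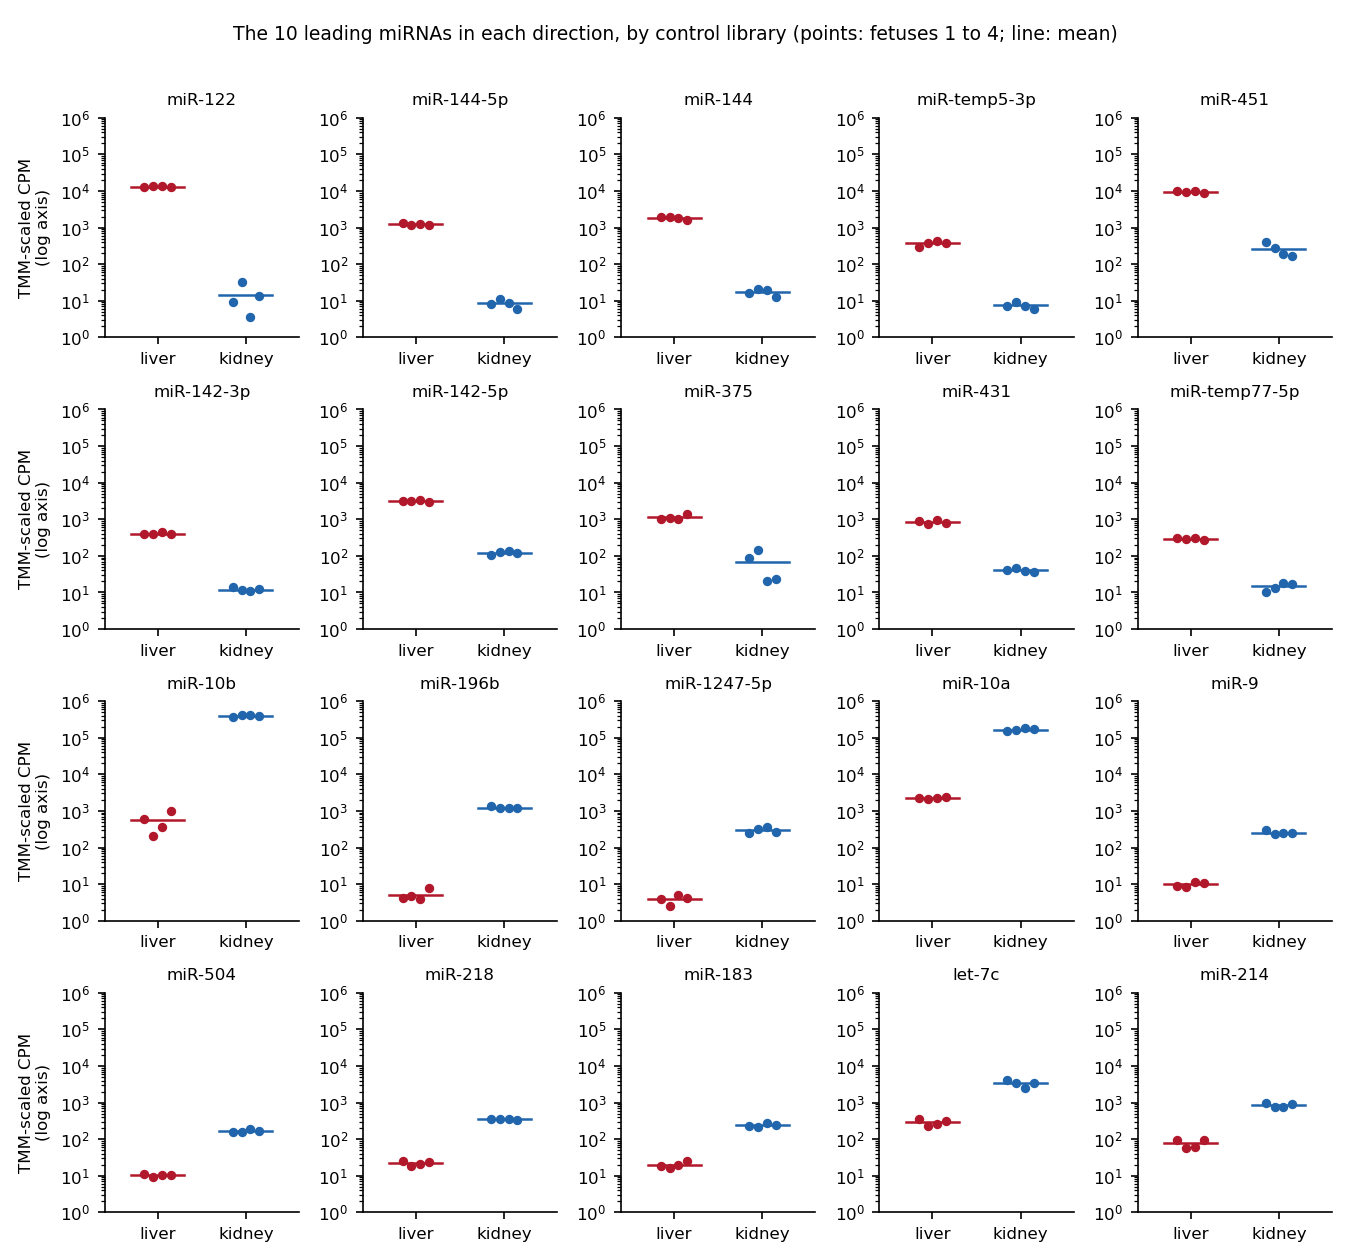
Levels of the 10 leading miRNAs in each direction in every control library, as TMM-scaled CPM on a log axis, liver left of kidney. Points are fetuses 1 to 4 in order from left to right and lines are means. No liver point overlaps a kidney point in any panel. These miRNAs were picked for large differences, which favours such separation, and the tissues did not overlap for 348 of the 417 shared miRNAs (83.5%). The widest spreads are those of miR-122 and miR-375 in kidney and of miR-10b in liver.

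Other leading miRNAs on the liver side came from no single group. miR-375, best known from pancreatic islets, had 1046, 1051, 1036 and 1380 CPM in liver and 87.2, 145.3, 21.0 and 23.1 CPM in kidney (log2 4.37 ± 0.51, adjusted p = 3.7e-05, edgeR). The kidneys of fetuses 1 and 2 were several times higher than those of fetuses 3 and 4, and all stayed far below the livers. miR-431, an imprinted miRNA, had 749 to 940 CPM in liver and 35.5 to 45.6 CPM in kidney (log2 4.37 ± 0.11). A pair of entries with temporary names, which were not resolved here, completed the leading 10: miR-temp5-3p, with 301 to 427 CPM in liver and 6.06 to 9.46 CPM in kidney (5.62 ± 0.14), and miR-temp77-5p, with 278 to 308 and 10.5 to 18.3 CPM (4.33 ± 0.15).

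The HOX-cluster miRNAs gave the largest differences on the kidney side. miR-10b had 612, 201, 357 and 1028 CPM in the 4 livers, against 370022, 418269, 408706 and 402620 CPM in the 4 kidneys. The kidneys were nearly level, while the livers varied several-fold. The log2 difference was -9.75 ± 0.47 (adjusted p = 9.9e-08, edgeR), and it ranged from -10.14 to -9.33 as each fetus was left out. miR-10a had 2306, 2091, 2281 and 2378 CPM in liver and 151506, 163212, 181905 and 170177 CPM in kidney (-6.20 ± 0.10). miR-196b had 4.11, 4.62, 3.86 and 7.92 CPM in liver and 1327, 1206, 1194 and 1179 CPM in kidney (-7.92 ± 0.18). For miR-10a the libraries of each organ lay close together. For miR-196b the kidneys lay close together, while the liver of fetus 4 was higher than the other livers. Both miRNAs were far apart between the organs.

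Within the liver miR-10a exceeded miR-10b in every library, and within the kidney miR-10b exceeded miR-10a in every library. The mature miR-10a and miR-10b are near-identical in sequence, and no source used here says how reads that fit both were assigned. The remaining entries of the HOX list were all listed for kidney alone: miR-196a at 653 ± 183 unscaled CPM, miR-615-3p at 108 ± 12.8, miR-10a-3p at 83.2 ± 2.79 and miR-10b-3p at 47.4 ± 1.85 (SD, n = 4). Across the other organs miR-10b was also high, at 89990 unscaled CPM in skeletal muscle and 25133 in tongue, whereas miR-10a averaged 3613 in muscle and 643 in tongue. The liver was lowest of the 4 tissues for miR-10b, at 773 unscaled CPM.

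Epithelial miRNAs were lower in liver as a group. The miR-200 family (miR-200a, miR-200b, miR-200c, miR-141 and miR-429) represses ZEB1 and ZEB2 and so keeps cells epithelial, and miR-182 and miR-183 are cut from a shared transcript of sensory and other epithelia. All 9 shared members were lower in liver beyond 2-fold, against 24.7% of all shared miRNAs. The median of the 9 was -2.28, and their summed level was 667 to 809 CPM in liver and 3585 to 4325 CPM in kidney. miR-182, the most abundant, had 148, 135, 163 and 222 CPM in liver and 1463, 1402, 1898 and 1710 CPM in kidney (-3.29 ± 0.11). miR-200a had 161 to 195 and 711 to 846 CPM in liver and kidney (-2.17 ± 0.08), and miR-429 had 190 to 201 and 432 to 545 CPM (-1.33 ± 0.08).

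Within the group the liver level of miR-141 varied most: 35.2, 37.2, 53.0 and 90.2 CPM in liver, against 399 to 533 CPM in kidney (-3.12 ± 0.24). The squamous and ductal miRNA miR-205 was listed for kidney alone with 158.1, 282.5, 82.5 and 248.0 unscaled CPM, so the fetuses differed widely. Its level in tongue was 2855 unscaled CPM.

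Mesenchymal miRNAs were lower in liver too. miR-199a and miR-214 are cut from a shared transcript opposite DNM3 that is active in connective tissue. All 6 shared members were lower beyond 2-fold, against 24.7% of all shared miRNAs. The median of the 6 was -2.78, and their summed levels were 2133 to 3506 CPM in liver and 15779 to 16619 CPM in kidney. miR-199a-3p had 2268, 1411, 1553 and 2224 CPM in liver and 11527, 11127, 11091 and 11381 CPM in kidney (-2.63 ± 0.12). The livers of fetuses 1 and 4 were the higher ones, and miR-214 showed the same order, with 96.0, 58.3, 62.3 and 95.7 CPM in liver and 956, 770, 780 and 896 CPM in kidney (-3.47 ± 0.11). miR-199a and miR-199b share a near-identical mature sequence, so reads may be split between them.

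Most vessel-related miRNAs differed little, and the direction of miR-126, miR-143 and miR-145 depended on the scaling. miR-126, made from an intron of the endothelial gene EGFL7, was lower in liver for both arms, with 7463 to 8796 CPM in liver and 13271 to 14677 CPM in kidney for miR-126-5p (-0.76 ± 0.07), but the difference became 0.22 for this arm and 0.42 for miR-126-3p without scaling factors. The third endothelial member, miR-139, was higher in liver with TMM (1.10 ± 0.09) and without scaling factors (2.08). Of the smooth muscle miRNAs, miR-143 had 50933, 42587, 50024 and 51055 CPM in liver and 52303, 83206, 55967 and 70534 CPM in kidney. Its difference of -0.41 ± 0.14 (adjusted p = 0.025, edgeR) was not called without fetus 2 (-0.22) or without fetus 4 (-0.39), and it became 0.57 without scaling factors. Of the 4 smooth muscle members, the arms of miR-143 and miR-145, 3 were lower and none beyond 2-fold. Over all shared miRNAs 42.2% were lower, 24.7% beyond 2-fold. Without scaling factors 3 of the 4 were called higher, against 272 of all 417 shared miRNAs. The muscle miRNA miR-133a was at 45.6 to 56.7 CPM in liver and 27.5 to 126.8 CPM in kidney, overlapping (-0.11 ± 0.31, adjusted p = 0.74, edgeR). The muscle miRNAs miR-133b and miR-499 were listed for liver alone, at 2.99 and 9.35 unscaled CPM, and miR-1, miR-206 and miR-208 were listed for neither organ.

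The neural list was split. miR-9, a miRNA of neural progenitors, had 8.76, 8.47, 11.8 and 10.6 CPM in liver and 300.0, 230.5, 252.0 and 248.0 CPM in kidney (-4.70 ± 0.13). miR-128 and miR-138, both also high in brain, were higher in liver: miR-128 had 381 to 485 CPM in liver and 152 to 174 CPM in kidney (1.35 ± 0.08), and miR-138 had 61.4 to 73.1 and 7.93 to 11.1 CPM (2.82 ± 0.14). The other shared member, miR-128-1-5p, was lower in liver (-0.42 ± 0.16), and this became 0.56 without scaling factors. Listed for liver alone were miR-7, miR-7-2-3p, miR-129-5p and miR-129-3p, at 32.4, 11.6, 13.3 and 8.49 unscaled CPM. miR-124a, miR-124b and miR-137 were listed for neither organ. Further leading miRNAs lower in liver were miR-1247-5p, with 2.50 to 5.21 CPM in liver and 249.9 to 355.8 CPM in kidney (-6.22 ± 0.16), miR-504, hosted by FGF13, with 9.43 to 11.4 and 155.4 to 186.0 CPM (-3.99 ± 0.11), and miR-218, hosted by the SLIT genes, with 18.9 to 25.6 and 342.2 to 352.7 CPM (-3.96 ± 0.11). The groups did not overlap for miR-9, miR-128, miR-138, miR-1247-5p, miR-504 or miR-218, as for 83.5% of all shared miRNAs.

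The let-7 family, which accumulates as tissues mature and represses LIN28 and HMGA2, was lower in liver throughout. All 14 shared members, which include miR-98 and the passenger arms, were called lower, 13 of them beyond 2-fold, and the median was -2.17. Over all shared miRNAs 42.2% were lower, 24.7% beyond 2-fold. The family summed to 12702 to 14007 CPM in liver and 52359 to 60815 CPM in kidney. let-7f, the most abundant, had 5267, 5440, 6102 and 5558 CPM in liver and 17516, 16791, 17268 and 16180 CPM in kidney (-1.60 ± 0.07), and let-7c had 366, 224, 262 and 317 CPM in liver and 4053, 3539, 2498 and 3390 CPM in kidney (-3.53 ± 0.12). The organs were well separated for both, and the difference was larger for let-7c. The member short of the 2-fold test was let-7a-3p (-1.15 ± 0.12). The main arms of let-7 are near-identical in sequence, so reads may be split among them, which bears on single members more than on the sum.

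The miR-99, miR-100 and miR-125 miRNAs are encoded beside let-7 genes. Of 10 shared members 9 were lower in liver, 7 beyond 2-fold, with a median of -1.77. These shares were 42.2% and 24.7% over all shared miRNAs. miR-99b had 3842 to 4552 CPM in liver and 11791 to 14247 CPM in kidney (-1.63 ± 0.09), and miR-125b had 891 to 1243 and 4021 to 4976 CPM (-2.12 ± 0.11). The exception was miR-100, with 4260, 4116, 3846 and 3602 CPM in liver and 3528, 3140, 3420 and 4202 CPM in kidney, where the organs overlapped (0.15 ± 0.10, adjusted p = 0.17, edgeR). miR-100 was called higher in liver without fetus 4 (0.28) and without scaling factors (1.13).

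The cell-cycle related miR-424 cluster lies on the X chromosome in human and mouse. It was lower in liver for all 8 shared members, 7 beyond 2-fold, with a median of -2.19. Over all shared miRNAs 42.2% were lower, 24.7% beyond 2-fold. miR-542-3p had 435 to 508 CPM in liver and 2102 to 2496 CPM in kidney (-2.25 ± 0.09). The most abundant, miR-450b, differed least, with 2760 to 3527 CPM in liver and 4459 to 6002 CPM in kidney (-0.76 ± 0.11), and this became 0.22 without scaling factors. The miR-30 family, known for its part in podocytes and tubules, was lower in liver for 8 of 10 members, 5 beyond 2-fold, with a median of -1.46. Without scaling factors 5 were called lower and 2 higher, against 98 lower and 272 higher of all 417 shared miRNAs. miR-30a-5p had 20437, 16794, 17694 and 22568 CPM in liver and 88143, 108546, 110472 and 104346 CPM in kidney (-2.41 ± 0.12), and miR-30d was also lower (-1.79 ± 0.07). In contrast miR-30c was slightly higher in liver (0.25 ± 0.07), and miR-30e-5p was at 6220 to 7383 CPM in liver and 5875 to 7334 CPM in kidney (0.01 ± 0.06, adjusted p = 0.90, edgeR). The family members thus did not move together.

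The miR-15 and miR-16 miRNAs, which repress cyclins, were higher in liver for 6 of 7 members, 3 beyond 2-fold, with a median of 1.03. Over all shared miRNAs 45.3% were higher, 23.5% beyond 2-fold. miR-15a had 532, 550, 565 and 530 CPM in liver and 116, 121, 114 and 119 CPM in kidney (2.21 ± 0.08), and miR-16b had 3483 to 3840 and 1610 to 1918 CPM (1.03 ± 0.06). The member lower in liver was miR-195 (-0.69 ± 0.13; 0.29 without scaling factors). The miR-17 clusters, known as drivers of cell growth, differed little: 11 of 16 members were higher and 1 was lower, 2 passed 2-fold, and the median was 0.32. The most abundant, miR-92a, had 39684 to 42330 CPM in liver and 23704 to 27151 CPM in kidney (0.70 ± 0.07), and the member lower in liver was miR-92b (-1.06 ± 0.08). Without scaling factors miR-92b was at -0.076 and not called, and 15 members were called higher, against 272 of all 417 shared miRNAs. The p53 target miR-34a had 41.1, 68.7, 62.3 and 61.7 CPM in liver and 11.3, 6.94, 6.30 and 8.86 CPM in kidney (2.77 ± 0.23), while its relative miR-34c was lower in liver (-0.70 ± 0.10; 0.28 without scaling factors). The hypoxia miRNA miR-210 was lower in liver (-0.49 ± 0.09; 0.49 without scaling factors).

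**Figure D3:**
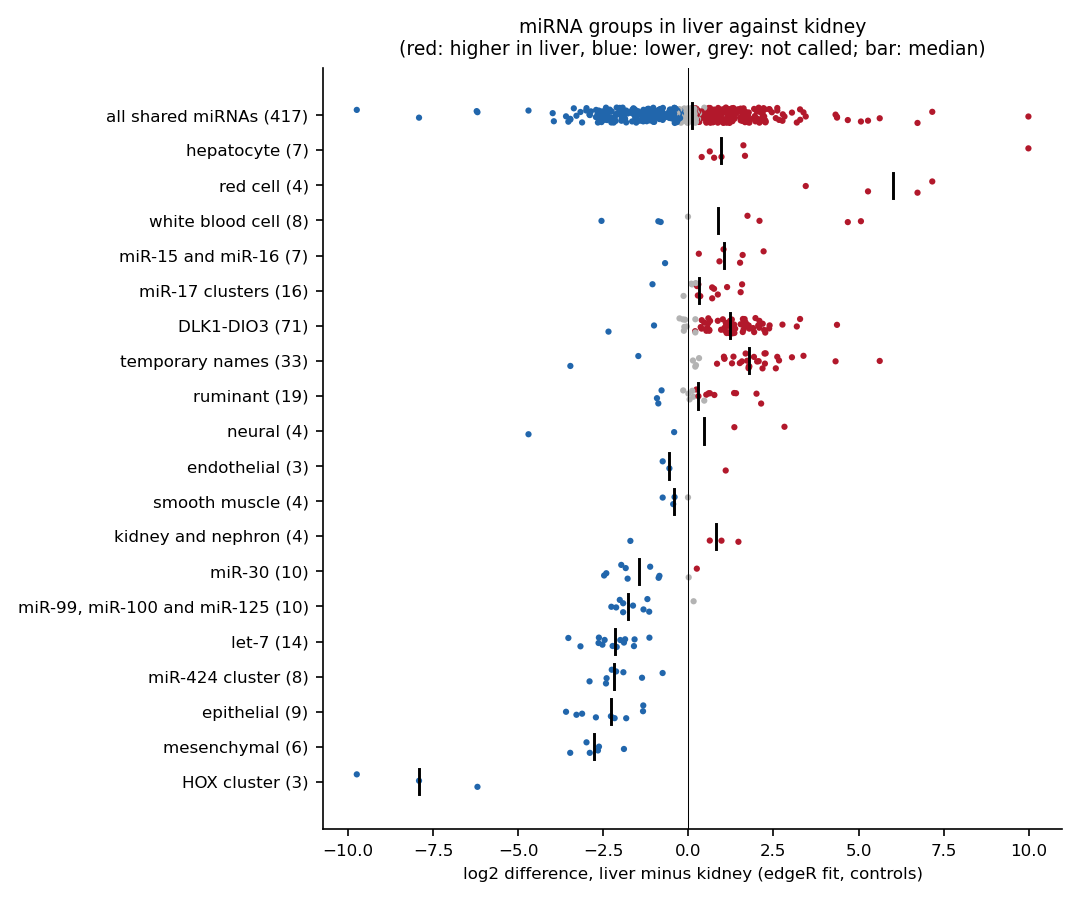
Differences between liver and kidney by miRNA group in control fetuses. Each point is a shared miRNA, the horizontal axis is its log2 difference (liver minus kidney, edgeR fit with TMM), and the number of members stands beside each group name. Red points are called higher in liver, blue points lower, grey points are not called at an adjusted p under 0.05, and the black bar is the median of the group. The red cell group lies highest with a median of 6.01 and the HOX-cluster group lowest with a median of -7.92, while the median of all shared miRNAs is 0.11.

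The DLK1-DIO3 cluster is an imprinted locus that carries one of the largest groups of miRNAs in mammals and is read from the maternal chromosome in mouse, human and sheep. Of its 71 shared miRNAs, 61 were higher in liver, 36 of them beyond 2-fold, 2 were lower and 8 were not called, with a median of 1.22. These counts stand beside 45.3% higher, 23.5% higher beyond 2-fold and 42.2% lower over all shared miRNAs. miR-411a, the most abundant, had 60934, 62802, 67926 and 64431 CPM in liver and 39567, 47862, 45742 and 44680 CPM in kidney (0.53 ± 0.08). miR-409a-3p had 10300 to 11990 and 6472 to 7439 CPM (0.64 ± 0.06), and miR-410 had 7389 to 8178 and 6427 to 7088 CPM (0.20 ± 0.07). For all 3 the organs did not overlap, but the differences were under 2-fold.

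Members of the cluster diverged strongly. miR-431 and miR-127 both lie opposite RTL1, a gene of paternal expression, and they stood at opposite ends: miR-431 was 4.37 log2 units higher in liver, while miR-127 had 8793, 6464, 6133 and 6267 CPM in liver and 35898, 33478, 35763 and 34229 CPM in kidney (-2.35 ± 0.10, adjusted p = 4.6e-08, edgeR). The other member lower in liver was miR-412-5p (-1.01 ± 0.07). Without scaling factors miR-412-5p was at -0.031 and not called, leaving 69 members higher and 1 lower. Over all 417 shared miRNAs 272 were then higher and 98 lower. In unscaled CPM the muscle tissues held more of both than liver or kidney: miR-431 averaged 1676 in skeletal muscle and 1698 in tongue, and miR-127 averaged 106601 and 134710 there. Kidney was the lowest of the 4 tissues for miR-431, at 29.0 unscaled CPM, and liver was the lowest for miR-127, at 9725. Summed over the cluster, liver held 137208 to 149832 CPM and kidney 111184 to 119064 CPM.

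Of the miRNAs at other imprinted loci, the intronic miRNAs of MEST were lower in liver: miR-335 had 99.5 to 157.0 CPM in liver and 519 to 595 CPM in kidney (-2.20 ± 0.12), and miR-335-3p had 77.3 to 118.3 and 893 to 958 CPM (-3.37 ± 0.11). miR-483, which lies in an intron of the fetal growth factor gene IGF2, was higher in liver, with 357, 409, 552 and 503 CPM in liver and 242, 196, 221 and 233 CPM in kidney (1.01 ± 0.12). From the GNAS locus, miR-296-5p was lower in liver (-1.13 ± 0.12), and miR-296-3p was at 180 to 202 CPM in liver and 200 to 236 CPM in kidney (-0.15 ± 0.07, adjusted p = 0.078, edgeR).

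Of 19 shared entries of the ruminant miR-2284 and miR-2285 families 10 were higher in liver, 4 of them beyond 2-fold, and 3 were lower, with a median of 0.29. The shares higher and beyond 2-fold higher were near those of all shared miRNAs, 45.3% and 23.5%. Without scaling factors 16 of the 19 were called higher and none lower, against 272 higher and 98 lower of all 417 shared miRNAs. The most abundant, miR-2284x, had 699 to 779 CPM in liver and 1298 to 1406 CPM in kidney (-0.88 ± 0.07), and this became 0.10 without scaling factors. Of 33 entries with temporary names 27 were higher in liver and 2 lower, against 45.3% and 42.2% of all shared miRNAs. Of the 27, 21 were beyond 2-fold (23.5% over all shared miRNAs), and the median of the entries was 1.77. The most abundant was miR-temp63-3p, with 20345, 19199, 21496 and 20051 CPM in liver and 5125, 3597, 4202 and 4404 CPM in kidney (2.24 ± 0.09). The strongest in the other direction was miR-temp1-5p, with 249 to 349 CPM in liver and 3022 to 3276 CPM in kidney (-3.47 ± 0.11). The temporary names were not resolved here, so no role is given for these entries. The pairs miR-temp81-5p and miR-temp94-3p, miR-temp34-3p and miR-temp82-3p, and miR-339a and miR-339b had counts within 6% of each other in all 8 libraries, so they may count the same reads.

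The ratio of the 2 arms of a precursor needs no scaling between libraries. It could be tested for 83 precursors with both arms in both tables, with limma on log2 of the 5p over the 3p count, and it differed for 54 of them (65.1%). The 5p share was higher in liver for 26 and lower for 28, and for 12 the ratio differed at least 2-fold. The largest change was at mir-127, where the 5p arm gave 5.67%, 7.23%, 8.12% and 7.71% of the reads in liver and 1.14%, 1.14%, 1.08% and 1.17% in kidney (log2 of the arm ratio 2.74 ± 0.12, adjusted p = 1.8e-09, limma). The main arm, miR-127, was lower in liver, whereas miR-127-5p was slightly higher (0.39 ± 0.07). Opposite calls for the arms were found for 3 precursors (mir-127, mir-148b and mir-541), against 62 whose arms were both called in the same direction. Of these 3, the arms that were lower in liver, miR-148b and miR-541, became 0.14 and 0.40 without scaling factors, while miR-127 stayed lower (-1.37).

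For 5 called precursors the more abundant arm differed between the tissues in all 8 libraries. At mir-1185 the 5p arm gave 29.6% to 31.6% of reads in liver and 62.9% to 70.4% in kidney (-2.16 ± 0.11), and at mir-379 it gave 24.5% to 27.8% in liver and 53.4% to 59.9% in kidney (-1.84 ± 0.10). mir-335 went the other way, with 56.3% to 59.2% in liver and 36.4% to 40.0% in kidney (1.17 ± 0.10). The changes at mir-493 and mir-106b were smaller, with mean 5p shares of 43.0% and 51.8% in liver and 54.8% and 44.5% in kidney. At mir-452 the arms were about level in liver, with 5p shares of 53.4%, 46.6%, 48.7% and 50.9%, against 59.7% to 65.1% in kidney. The rest of the 6 largest changes did not switch arm: mir-411c had a 5p share of 70.1% in liver and 87.6% in kidney, mir-500 had 4.84% and 1.93%, and mir-148b had 9.29% and 3.86%. Of the 20 DLK1-DIO3 precursors tested 15 were called, 6 of them at least 2-fold, and the 5p share was lower in liver for 10 of the 15. Over all 83 precursors 54 were called (65.1%), 12 of them at least 2-fold and 28 with a lower 5p share in liver. The same direction was called in LOS fetuses for 42 of the 54 precursors.

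**Figure D4:**
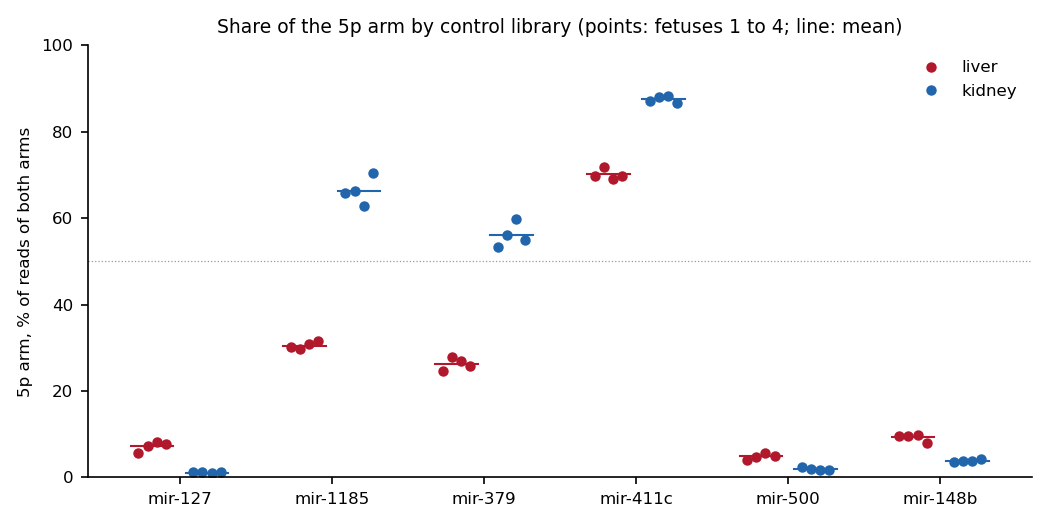
Share of the 5p arm in the reads of both arms for the 6 precursors with the largest called difference, in percent on an axis from 0 to 100. Points are control libraries of fetuses 1 to 4, liver (red) left of kidney (blue), and short lines are means. At mir-1185 and mir-379 the liver points lie under the dotted line at 50% and the kidney points above it. No liver point overlaps a kidney point at any of the 6, which were picked for the size of their difference.

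miRNAs listed in a single table were mostly scarce. The 146 listed for liver alone made up 0.452% of liver reads, with a median of 11.7 unscaled CPM, and 58 of them averaged under 10. The 19 listed for kidney alone made up 0.123% of kidney reads, with a median of 11.5. A miRNA that a table does not list is not known to be at 0, so no fold is given. The most abundant for liver was miR-122-3p, the passenger arm of miR-122, with 998, 1162, 1035 and 1048 unscaled CPM. Next were miR-temp61-5p (444 ± 252), miR-507-3p (165 ± 21.2), miR-12030 (139 ± 36.2) and miR-1388-3p (125 ± 30.0; SD, n = 4). The liver-enriched miR-885 averaged 53.0 ± 6.81 unscaled CPM. For kidney the list was led by miR-196a, miR-205, miR-615-3p and the passenger arms of miR-10a and miR-10b, whose values are given above. Among the entries for liver alone, 79 have names ending in 3p or 5p, 30 carry temporary names and 22 belong to the miR-2284 and miR-2285 families.

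LOS fetuses gave nearly the same tissue difference. In their 4 pairs 348 of 417 miRNAs (83.5%) were called and 195 (46.8%) were beyond 2-fold. Of those beyond 2-fold, 181 were so in both sets with the same direction, which is 92.8% of the LOS list and 90.0% of the control list. No miRNA was called in opposite directions, and 338 had the same call in both. Across the 417 miRNAs the log2 differences of the 2 sets had a Pearson correlation of 0.991, a description across miRNAs from the same 2 tables, and the median gap between them was 0.13.

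**Figure D5:**
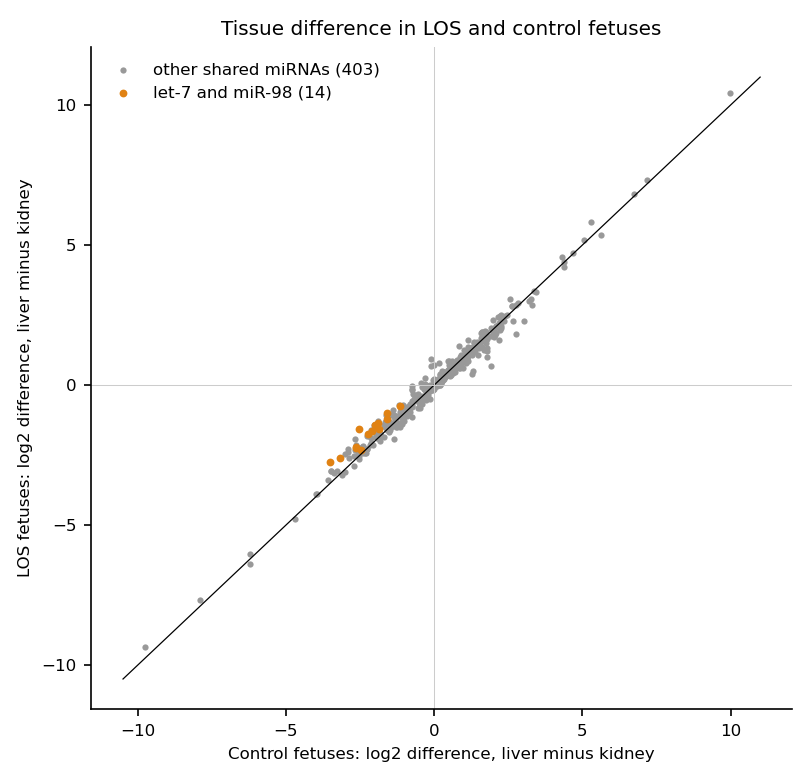
Log2 difference between liver and kidney in LOS fetuses (vertical axis) and control fetuses (horizontal axis) for the 417 shared miRNAs, each from 4 pairs. The line marks equal differences, orange points are the 14 let-7 and miR-98 members, and grey points are the others. The points follow the line from miR-10b at the lower left to miR-122 at the upper right, and the let-7 points lie above it.

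Whether the tissue difference itself differed with LOS was tested as an interaction over 16 libraries. No miRNA was called by edgeR, the lowest adjusted p was 0.072, and 34 miRNAs had an unadjusted p under 0.05. The lowest p belonged to let-7f, whose log2 difference was -1.0 in LOS fetuses and -1.60 in controls (interaction 0.57 ± 0.11, adjusted p = 0.072, edgeR). let-7i had -2.20 in LOS fetuses and -2.64 in controls, and let-7c had -2.76 and -3.53. Of the 9 lowest p-values 7 belonged to let-7 and miR-98, and the interaction was positive for all 14 members. Positive interactions were also the more frequent over all 417 miRNAs, with 23 of the 34 under an unadjusted p of 0.05. The main arms are near-identical in sequence, and each passenger arm shares a precursor with a main arm, so the members are not independent. The family's median difference was -1.62 in LOS fetuses and -2.17 in controls, and all 14 members were called lower in liver in both. Without the fetus block let-7f was called (adjusted p = 0.030, edgeR).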

How the data were processed

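Per the labels' protocols, TRIzol-extracted RNA of frozen tissue was made into libraries with the Illumina TruSeq small RNA kit. The authors deposited raw, whole-number read counts for each miRNA and library, with no normalization. Bowtie and UMD3.1 are named in the submitters' processing notes. Neither a counting tool nor the annotation or a filter on listed miRNAs is given in the sources used here.

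The fetus number was a block because the comparison is defined as paired. Deviations of libraries sharing a number correlated at 0.05, 0.19, 0.29 and 0.16 for fetuses 1 to 4, against -0.20 to 0.18 for other pairs. Tests used R 4.3.3 with edgeR 4.0.16 (filterByExpr, which kept all 417 miRNAs, TMM with the totals of listed reads, glmQLFTest, and glmTreat at 2-fold) and limma 3.58.1 for arm ratios, with 2 reads added to each arm and a mean count of at least 10. Adjustment was over all 417 miRNAs or 83 precursors. The steps were tested on simulated data. No 2 libraries of a tissue agreed within sampling noise. Nothing says more than the fetus numbers about how replicates were taken. The p-values of tests with the block measure only the spread of the tissue difference across these numbered pairs.

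Members and lists were chosen with earlier results of these data known. The text names the 5 most abundant miRNAs per tissue, the 10 largest differences each way beyond 2-fold with at least 100 CPM, up to 4 members per list by CPM, the 5 most abundant listed for 1 tissue alone and the 6 largest arm changes. Others were named after their values were seen, to complete a count or a comparison. Alternatives included DESeq2 1.42.0 and limma-voom.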

Additional observations from a re-analysis of the deposited data

Results flagged for a closer look

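Among 184 groups of 4 control libraries, 14 had a library whose gap to the nearest of the others was large against the range of the group. Chance flags about 1 in 20 groups, which would be 9.2 here, so single flags carry little weight. Values are TMM-scaled CPM. In liver, miR-215 stood at 698 in fetus 4 and 151 to 210 in the others, miR-375 at 1380 in fetus 4 and 1036 to 1051 in the others, and miR-143 at 42587 in fetus 2 and 50024 to 51055 in the others. The liver of fetus 1 stood high for miR-127 (8793, others 6133 to 6464), miR-125b (1243, others 891 to 935) and miR-335-3p (118.3, others 77.3 to 84.1). The liver of fetus 3 stood high for miR-409a-3p (11990, others 10300 to 10539), miR-210 (134.4, others 118.0 to 119.0) and miR-2284x (779, others 699 to 711). In kidney, fetus 2 was low for miR-19b (816, others 908 to 923) and miR-2284w-3p (93.4, others 102.2 to 102.9) and high for miR-296-3p (236, others 199.9 to 205.4). Kidney miR-125b was 4976 in fetus 4 and 4021 to 4174 in the others, and kidney miR-450a was 1522 in fetus 3 and 1367 to 1391 in the others. The miR-215 value was the only one more than 2-fold away from the nearest of its group, and without fetus 4 the difference between liver and kidney for miR-215 was 0.97 in place of 1.47.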

How the results depend on the processing

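Scaling mattered most. Without scaling factors 98 miRNAs were called lower in liver in place of 176, and beyond 2-fold 201 were higher and 50 lower in place of 98 and 103. Without scaling factors 80 of the 417 differences changed sign. Among the 92 miRNAs named by rule these were miR-143 (0.57), miR-342 (0.97), miR-155 (0.097), miR-126-5p (0.22), miR-126-3p (0.42), miR-145 (0.53), miR-145-3p (0.22), miR-143-5p (0.97), miR-133a (0.87), miR-128-1-5p (0.56), miR-450b (0.22), miR-34c (0.28), miR-296-3p (0.83), miR-210 (0.49) and miR-2284x (0.096). Others of the 80 included miR-342-5p (0.16), miR-195 (0.29), miR-148b (0.14), miR-541 (0.40), miR-30b-5p (0.10) and miR-30e-3p (0.13). Among the 92, other changes of sign were of uncalled differences near 0. With upper-quartile scaling these were miR-342 (0.14), miR-143-5p (0.14) and miR-133a (0.037). For miR-30e-5p they came with RLE scaling (-0.061), DESeq2 (-0.061), a mean of at least 10 CPM in both tissues (-0.030) and liver control 5 added without the block (-0.030), and for miR-143-5p with liver control 5 added (0.016). As each fetus was left out, miR-342 ranged from -0.058 to 0.0089, miR-143-5p from -0.19 to 0.20, miR-133a from -0.38 to 0.34 and miR-30e-5p from -0.0071 to 0.029. Among named miRNAs, calls near the threshold were lost on leaving out a fetus for miR-143 (2 or 4), miR-145 (2 or 4), miR-128-1-5p (2, 3 or 4) and miR-410 (3 or 4).

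Across the alternatives 1307 of 1366 values of 92 named miRNAs kept direction and call, and 71 miRNAs kept both under all of them. Leaving out each fetus gave 350 to 366 calls, 196 to 213 beyond 2-fold, 49 to 54 arm ratios and 342 to 348 LOS calls. Other tools gave 360 calls (DESeq2) and 365 (limma-voom). With a mean count of at least 100 per arm, which tests fewer precursors, 32 arm ratios were called in place of 54. Without the replicate block 364 miRNAs were called in controls, 201 beyond 2-fold, 56 arm ratios, 349 in LOS fetuses and 1 interaction in place of 0. The block otherwise changed no call among the named miRNAs. Seed families were not run, as no mature sequences were used here.

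Low levels limit precision: miRNAs near 5 CPM rest on few reads in liver, where libraries were shallower. Level and spread did not always go together. The SE was 0.46 for miR-122, at 14.8 CPM in kidney, and 0.11 for miR-144, at 17.5 CPM in kidney. For miR-10b, at 550 CPM in liver, it was 0.47. What the wider spreads come from was not tested. The tables list no zero counts, and their totals are of listed miRNAs only.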
